A study of Arabidopsis thaliana with 12 samples.

Results

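The genes described are those of the cytosolic 60S ribosomal proteins L3 to L23a in seeds of Arabidopsis thaliana. The members were taken from a list of gene identifiers by ribosomal protein family, not by any measured value, and RPL18AA was left out of that list. Earlier results of these data were known when the members were chosen. They are 59 of the 32833 genes in the count table and fall into 22 families, 11 with 2 genes, 7 with 3 and 4 with 4. RNA was sequenced from freshly harvested seeds in 12 libraries, 3 in each of 4 groups. The groups were erf4 seeds imbibed for 6 h on wet filter paper, Col-0 seeds imbibed in the same way, dry erf4 seeds and dry Col-0 seeds. Col-0 is the wild-type accession, and erf4-1 is the single mutant line of the study in the gene for ERF4, an ethylene response factor that represses transcription through an EAR motif. The question behind the design was how the genotypes differ before and shortly after water uptake.

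The 60S subunit is the larger part of the cytosolic ribosome, which holds the site of peptide bond formation and the tunnel through which the new chain leaves. In plants each of its proteins is encoded by a small family of similar genes, and their transcripts are stored in dry seeds and made again when the seed takes up water. Proteins such as L5 and L11 bring in the 5S rRNA, L10a forms the mobile L1 stalk, L12 sits at the base of the stalk that binds translation factors, and L17 and L23a line the tunnel exit. Mutants in several of these genes, among them PGY1 (L10a), PGY2 (L9) and ATL5 (L5), are known for pointed leaves with altered leaf polarity, and mutants in emb2386 (L19) and EMB2296 (L8) arrest as embryos.

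Library totals ranged from 31787283 to 42590777 counts, so that 3 counts corresponded to between 0.0704 and 0.0944 CPM (counts per 1000000 counts of a library). The levels given here are CPM after further scaling by TMM factors, which were 1.07 to 1.29 in imbibed and 0.740 to 0.929 in dry libraries. ERF4 itself stood at 1.67, 7.03 and 14.9 CPM in imbibed erf4 against 21, 15.7 and 17 CPM in imbibed Col-0. In dry seeds it stood at 3.88, 9.0 and 15.3 CPM in erf4 and 15.9, 13.6 and 12.5 CPM in Col-0. In replicate 3 of the mutant ERF4 was thus near the Col-0 level in both states, which its label does not explain. The genotype of a library cannot be read from this level alone. ERF4 was not called by genotype (edgeR adjusted p = 0.691 in dry and 0.387 in imbibed seeds). Below, "erf4" means the libraries labelled erf4. Since no label states that the replicates are separate plants or harvests, the p-values cover the spread between these libraries, and that spread may be technical. The seed storage markers, all 9 of 9 tested, took 8.58 to 12.7% of the counts in imbibed erf4, 10.1 to 14.9% in imbibed Col-0, 12.9 to 13.5% in dry erf4 and 15.4 to 18.5% in dry Col-0, and 0 of them were called by genotype (edgeR). Whole seeds hold embryo, endosperm and coat, and in such bulk samples fewer cells of a type and less RNA per cell cannot be told apart.

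Of the 59 members, 58 had enough counts to be tested. The exception was AT3G48960, one of 3 L13 genes, with 1 count in imbibed erf4 replicate 1 and 0 counts in every other library. The 58 tested members ranged widely in level. Per kilobase of exon, which allows genes to be compared, their median was 220.4 CPM per kb in imbibed erf4, 157 in imbibed Col-0, 107 in dry erf4 and 78.0 in dry Col-0. The L19 gene emb2386 (AT1G02780) had the highest level in every group, with means of 797, 513, 540 and 385 CPM per kb in the same order of groups. Low levels belonged to RPL10B (AT1G26910), which averaged 17.7 CPM per kb in imbibed erf4, 10.4 in imbibed Col-0, 4.01 in dry erf4 and 2.28 in dry Col-0, and to RPL3B (AT1G61580), with 14.4, 10.9, 8.31 and 6.36 CPM per kb. The balance within a family could be very uneven, as in L3, where RP1 (AT1G43170) gave 97.0, 97.0, 97.1 and 97.3% of the transcript per kb in the 4 groups.

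Summed over the 59 members, levels were higher in erf4 than in Col-0 and higher in imbibed than in dry seeds. The sums were 18869, 14835 and 15093 CPM in imbibed erf4, against 11961, 12220 and 11774 CPM in imbibed Col-0. In dry seeds they were 11161, 8183 and 8708 CPM in erf4 and 7405, 7855 and 6351 CPM in Col-0. In each seed state every erf4 library lay above every Col-0 library. Replicate 1 of erf4 stood above the other erf4 libraries in both states, where it held the highest value of its group for 47 of the 58 tested members in imbibed and again for 47 in dry seeds. The heat map shows every tested member in every library.

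**Figure D1:**
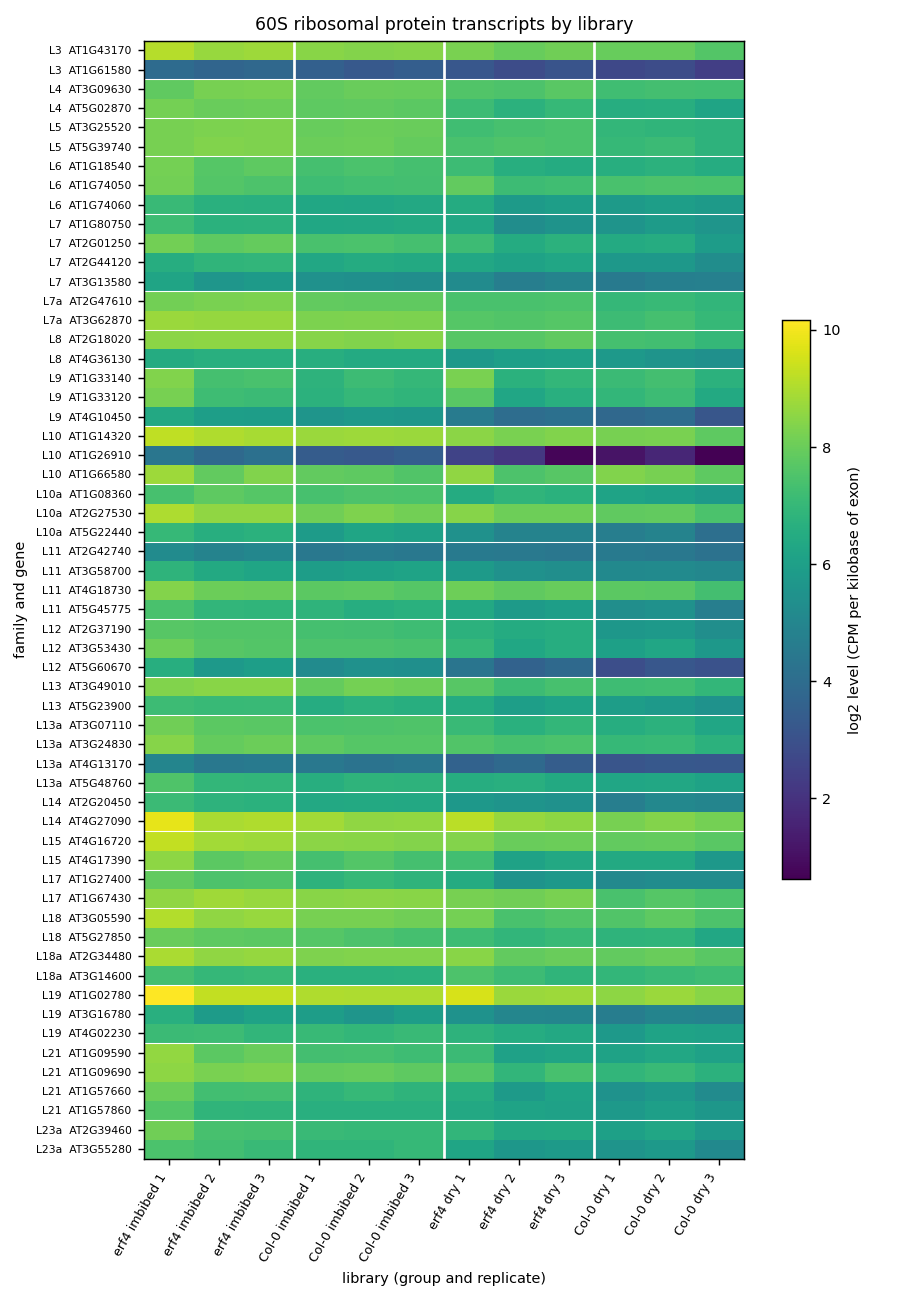
Log2 level (CPM per kilobase of exon, colour scale) of each of the 58 tested members (down, by family) in each of the 12 libraries (across), with the imbibed erf4 libraries at the left and the dry Col-0 libraries at the right. The L19 gene AT1G02780 is the brightest line, with group means of 385 to 797 CPM per kb, and most lines are brighter in imbibed than in dry seeds.

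The first comparison set erf4 against Col-0 in dry seeds. Members from 5 families, those of L7, L10a, L12, L14 and L17, were higher in erf4, and 0 of 58 were lower. These 5 of 58 members compare with a background of 0.519% of all 18897 tested genes called higher and 0.577% called lower (edgeR's quasi-likelihood test with a Benjamini-Hochberg adjusted p below 0.05). The median log2 fold change over the 58 members was 0.43, against 0.01 over all tested genes, and 57 of the 58 pointed higher. An unadjusted p below 0.05 was found for 36 members, where the background was 15.6%. With scaling by total counts alone the median of all genes is 0.12 in dry and 0.14 in imbibed seeds, and the median of the members stays 0.42 and 0.43 above it. In 35 members every erf4 library lay above every Col-0 library, a pattern that 8.18% of all tested genes had.

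The largest of these differences was in AT2G37190, one of 3 genes for L12, which lies on chromosome 2 at 15619206 to 15620156 (TAIR10, minus strand, 1 exon). It stood at 102, 85.1 and 91.0 CPM in dry erf4, against 48.6, 52.2 and 38.6 CPM in dry Col-0. The groups did not overlap, and the lowest erf4 library was well above the highest Col-0 library. The log2 fold change was 1.00 ± 0.13 (SE, as after every log2 fold change below; edgeR adjusted p = 0.00483), and the call held under all 23 alternative settings, with adjusted p between 1.73e-10 and 0.0397. The other L12 genes pointed the same way without being called. AT3G53430 stood at 153, 94.6 and 116 CPM in dry erf4 and 78.8, 93.1 and 63.1 CPM in dry Col-0 (0.63 ± 0.19, edgeR adjusted p = 0.125). AT5G60670, the least abundant of the 3, stood at 21.8, 13.4 and 16.2 CPM in dry erf4 against 8.21, 10.1 and 8.81 CPM in dry Col-0 (0.92 ± 0.22, edgeR adjusted p = 0.059). Neither gene overlapped between the genotypes, although for AT3G53430 the gap was narrow.

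AT1G67430 (chromosome 1, 25262134 to 25263857, plus strand, 7 exon blocks) encodes L17, a protein around the exit of the peptide tunnel. Its levels were 246, 228 and 251 CPM in dry erf4, against 143, 169 and 146 CPM in dry Col-0 (0.66 ± 0.12, edgeR adjusted p = 0.0174). Here replicate 1 of erf4 lay between the other erf4 libraries, and the groups were clearly apart. AT1G67430 shares 101 bp with AT1G67440 on the other strand, which had 470 to 749 counts, and as no source used here gives the strand setting of the counting, reads in that stretch cannot be assigned. The same holds for AT4G36130 (L8), AT4G18730 (L11) and AT5G27850 (L18), which share 295, 90 and 256 bp with a gene on the other strand. AT1G08360, an L1 stalk gene of the L10a family, stood at 101, 129 and 118 CPM in dry erf4 and 79.8, 73.8 and 62.1 CPM in dry Col-0 (0.69 ± 0.14, edgeR adjusted p = 0.0383). The erf4 libraries were all above the Col-0 libraries, with replicate 1 the lowest of them.

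AT2G44120 is one of 4 genes for L7. It stood at 153, 130.4 and 143 CPM in dry erf4 and 99.7, 97.8 and 74.6 CPM in dry Col-0 (0.65 ± 0.14, edgeR adjusted p = 0.0423). AT2G20450, the less abundant of the L14 genes, stood at 41.9, 38.1 and 34.9 CPM in dry erf4 and 21, 27.4 and 24.8 CPM in dry Col-0 (0.65 ± 0.14, edgeR adjusted p = 0.0384). In both genes the groups did not overlap. The calls were less stable than that of the L12 gene: over the 23 alternatives AT1G67430 was called in 17, AT1G08360 in 11, AT2G20450 in 10 and AT2G44120 in 8. The member that pointed lower was SAG24 (AT1G66580), an L10 gene known from senescing leaves. It stood at 443, 211 and 235 CPM in dry erf4 and 374, 343 and 259 CPM in dry Col-0, with overlapping groups (-0.13 ± 0.28, edgeR adjusted p = 0.863).

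The count of 5 was 1 without both erf4 replicate 3 libraries (background 0.183%) and 8 without both erf4 replicate 1 libraries (background 1.04%), an alternative chosen after seeing the data. Leaving out single libraries gave 1 without dry Col-0 replicate 1 or 3 or dry erf4 replicate 3, 2 without dry Col-0 replicate 2 or any one imbibed Col-0 library, 3 without imbibed erf4 replicate 3 and 9 without imbibed erf4 replicate 1, with backgrounds between 0.0877 and 0.860%. Without both replicate 1 libraries the median over the members was 0.31 and 49 of 58 pointed higher. Other transcripts differed alongside in dry seeds. The 8 pollen markers summed to 30.4 to 61.4 CPM in dry erf4, against 233 to 405 CPM in dry Col-0, with 7 of 8 called lower. The 4 markers of green tissue, 3 of them tested, summed to 62.9 to 187 CPM in dry erf4, against 39.5 to 57.9 CPM in dry Col-0, with 0 called by edgeR in either state and 1, RBCS1A (AT1G67090), higher over both states. The sum was nearly all RBCS1A, which averaged 112 CPM in dry erf4 and 46.3 CPM in dry Col-0. LHCB1.3 (AT1G29930) averaged 4.27 ± 3.87 CPM in dry erf4 and 0.632 ± 0.694 CPM in dry Col-0 (SD, n = 3). LHCA1 (AT3G54890) averaged 2.17 CPM in dry erf4 and 1.81 CPM in dry Col-0, and the defining marker LHCB1.1 had 0 to 14 counts over all libraries. The part of these transcripts in the ribosomal protein values was not tested.

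The promoters of 5 members are printed to show what lies just before their start: the 3 L12 genes, the L17 gene called in dry seeds, and the L6 gene AT1G74050, which was called in none of the 6 edgeR contrasts. Each is the 100 bases before the annotated start in the RefSeq copy of the TAIR10.1 genome, read 5′ to 3′ on the gene's own strand, and no annotated gene overlaps these windows. Capitals mark matches, on either strand, to the telo box AAACCCT and to site II, TGGGCC or TGGGCT, which are 2 motifs known from plant ribosomal protein promoters.
AT2G37190 (L12), chr2:15620157-15620256, minus strand: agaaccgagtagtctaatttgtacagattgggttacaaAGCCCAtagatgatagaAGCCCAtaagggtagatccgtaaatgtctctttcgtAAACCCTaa
AT3G53430 (L12), chr3:19810521-19810620, minus strand: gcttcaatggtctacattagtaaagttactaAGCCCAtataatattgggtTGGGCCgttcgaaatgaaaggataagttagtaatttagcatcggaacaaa
AT5G60670 (L12), chr5:24381600-24381699, minus strand: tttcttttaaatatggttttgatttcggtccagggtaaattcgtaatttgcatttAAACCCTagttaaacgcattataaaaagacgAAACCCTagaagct
AT1G67430 (L17), chr1:25262034-25262133, plus strand: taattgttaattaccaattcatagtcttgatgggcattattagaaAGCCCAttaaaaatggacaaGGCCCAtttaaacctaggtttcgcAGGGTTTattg
AT1G74050 (L6), chr1:27849009-27849108, minus strand: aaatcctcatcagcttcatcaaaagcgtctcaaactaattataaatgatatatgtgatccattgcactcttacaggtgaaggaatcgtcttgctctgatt
AT2G37190 has 1 telo box and 2 site II matches in these 100 bases, AT3G53430 has 2 site II matches and AT5G60670 has 2 telo boxes. AT3G53430 also has a telo box at position 2 after the start, past the printed bases. AT1G67430 has 1 telo box and 2 site II matches, and AT1G74050 has neither motif here.

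Over the 59 members, counted from 250 bases before to 50 bases after the start, site II occurred in 50 (84.7%) and the telo box in 31 (52.5%), both in 27 (45.8%) and neither in 5. Of the 18790 nuclear genes tested, 26.6% held site II, 10.2% the telo box and 3.90% both in a window of the same length. The 119 site II matches had a median position of -41 relative to the start, and the 35 telo boxes one of -3, at the start itself. Of all these matches 1 pair overlapped, and it was of the same motif. A match is a string of letters and not a shown binding site. Members with and without a telo box had near medians: the log2 fold change of erf4 against Col-0 in dry seeds was 0.46 with it and 0.42 without it, and that of imbibition 0.84 and 0.95 in erf4 and 0.93 and 0.91 in Col-0. Of the tested members 8 lacked site II. The median in dry seeds was 0.43 with site II and 0.40 without it. For imbibition it was 0.89 and 1.02 in erf4 and 0.92 and 0.93 in Col-0. Like AT1G74050, the tested members AT3G13580, AT1G09590 and AT2G39460 held neither motif, yet they were called higher on imbibition in both genotypes. PGY2 (AT1G33140) and AT1G33120, not called on imbibition, held 5 and 4 site II matches and 1 telo box each.

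**Figure D2:**
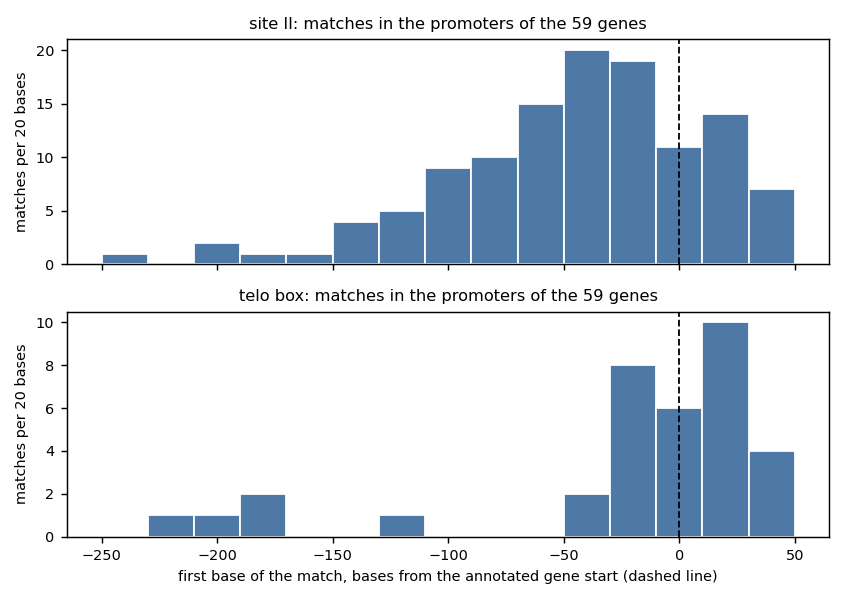
Number of site II and telo box matches in the promoters of the 59 members (vertical axis) by distance from the annotated start in bases, in bins of 20 bases (horizontal axis). Site II matches are spread around a median of -41, and telo boxes sit around a median of -3.

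The second comparison set the genotypes against each other in imbibed seeds. All 58 members pointed higher in erf4, but none passed the test by edgeR, with a median log2 fold change of 0.43, against 0.01 over all tested genes. Of the 58 members 0 were called (edgeR's quasi-likelihood test), where the background was 0.0159% higher and 0.00529% lower. An unadjusted p below 0.05 was found for 45 members (background 15.0%), and DESeq2 called 11 higher (background 1.55%). In 52 members every erf4 library lay above every Col-0 library, against 13.1% of all tested genes. Without both erf4 replicate 1 libraries all 58 still pointed higher and the median was 0.32. The largest difference was in AT1G09590, an L21 gene with a near copy (AT1G09690, 96.3% identical over 514 bp). It stood at 345, 188 and 219 CPM in imbibed erf4, against 137, 143 and 129 CPM in imbibed Col-0 (0.88 ± 0.26, edgeR adjusted p = 0.182). The groups were apart, and erf4 replicate 1 alone was far above the rest. The L12 gene AT2G37190, which led in dry seeds, stood at 197, 180.1 and 179 CPM in imbibed erf4, against 156, 152 and 141 CPM in imbibed Col-0 (0.31 ± 0.13, edgeR adjusted p = 0.286), again without overlap. The pollen markers summed to 5.27 to 7.91 CPM in imbibed erf4 and 4.91 to 8.60 CPM in imbibed Col-0. The green markers summed to 86.7 to 133 CPM in imbibed erf4, against 36.9 to 60.3 CPM in imbibed Col-0. Of this sum RBCS1A (AT1G67090) gave on average 114 CPM in imbibed erf4 and 51.4 CPM in imbibed Col-0. LHCB1.3 (AT1G29930) averaged 0.577 CPM in imbibed erf4 and 0.223 CPM in imbibed Col-0, while LHCA1 (AT3G54890) averaged 0.539 CPM in imbibed erf4 and 0.76 CPM in imbibed Col-0. The part of these transcripts was not tested.

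**Figure D3:**
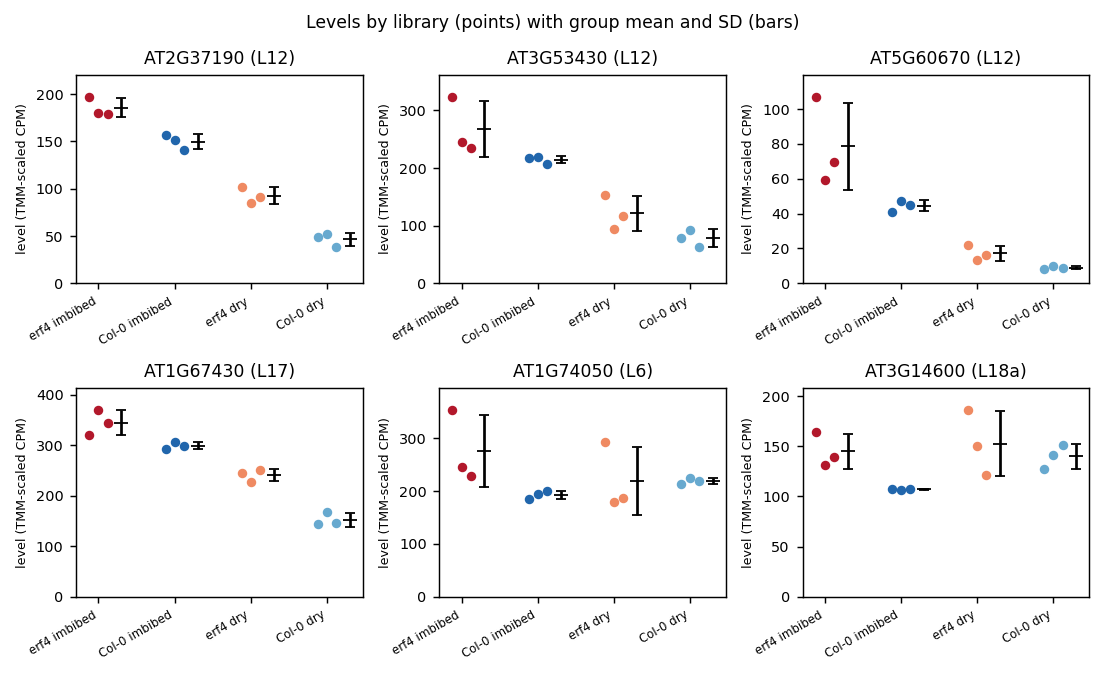
TMM-scaled CPM of 6 members (1 panel each, vertical axis from 0) in the 4 groups, with 1 point per library and the mean ± SD of 3 libraries. AT2G37190 lies at 85.1 to 102 CPM in dry erf4 and 38.6 to 52.2 CPM in dry Col-0, while AT1G74050 lies at 179 to 293 CPM in dry erf4 and 213 to 224 CPM in dry Col-0.

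Averaged over both seed states, 17 of the 58 members were higher in erf4 and 0 lower, where 1.46% of all tested genes were higher and 0.915% lower (edgeR's quasi-likelihood test). They came from 11 families, and in the L5, L7a, L10a and L17 families every gene was called. The median was 0.41, and 55 members had an unadjusted p under 0.05 (background 19.2%). This fit took all 12 libraries as separate, although same-numbered erf4 libraries correlated across the states (0.341 to 0.350). If such libraries share material, the p-values over both states are too small. Without both erf4 replicate 1 libraries 10 members were called higher (background 0.674%), and without both replicate 3 libraries 4 (background 0.340%). Without single libraries the count was 2, 7 and 3 without imbibed Col-0 replicate 1, 2 and 3, and 9 and 7 without imbibed erf4 replicate 1 and 3. It was 4 and 6 without dry Col-0 replicate 1 and 3, and 11, 33 and 8 without dry erf4 replicate 1, 2 and 3, with backgrounds between 0.253 and 3.27%.

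Among the genes for proteins that bind 5S rRNA, both L5 genes were higher. ATL5 (AT3G25520) stood at 439, 466 and 478 CPM in imbibed erf4, against 366, 392 and 376 CPM in imbibed Col-0. In dry seeds it stood at 227, 251 and 263 CPM in dry erf4 and 181, 176 and 165 CPM in dry Col-0. The genotypes overlapped in neither state, and here erf4 replicate 1 was the lowest of its group in both (0.40 ± 0.08, edgeR adjusted p = 0.0257). Its partner RPL5B (AT5G39740) differed by 0.39 ± 0.09 (edgeR adjusted p = 0.0349). Of the 4 L11 genes, AT5G45775 was called (0.64 ± 0.15, edgeR adjusted p = 0.0396).

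At the stalks, 2 of the 3 L12 genes were higher. AT5G60670 had the largest difference of all called members (0.87 ± 0.15, edgeR adjusted p = 0.0151). It stood at 107, 59.5 and 69.4 CPM in imbibed erf4, against 41, 47.4 and 45.2 CPM in imbibed Col-0, with replicate 1 of erf4 far above the others and no overlap. AT2G37190 differed by 0.65 ± 0.09 (edgeR adjusted p = 0.00671) and kept its call under all 22 alternatives, as AT5G60670 did under 20. The calls of AT1G27400 (L17) held under 18 of the 22, of AT1G57660 (L21) under 11, of AT5G45775 under 10 and of AT5G22440 (L10a) under 9, the last being lost also with the replicate block. The 3 genes for L10a were all called, with 0.60 ± 0.14 for AT5G22440, 0.50 ± 0.12 for PGY1 (AT2G27530) and 0.43 ± 0.10 for AT1G08360 (edgeR adjusted p = 0.0468, 0.0444 and 0.0446).

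At the tunnel exit both L17 genes were higher, AT1G27400 by 0.75 ± 0.14 (edgeR adjusted p = 0.0198) and AT1G67430 by 0.43 ± 0.08 (edgeR adjusted p = 0.0197). AT1G27400 stood at 230, 178 and 184 CPM in imbibed erf4, against 111, 130 and 112 CPM in imbibed Col-0. In dry seeds it stood at 88.7, 45.7 and 52.6 CPM in dry erf4 and 34.6, 37.7 and 38.2 CPM in dry Col-0. In both states every erf4 library lay above every Col-0 library. Both L7a genes, AT2G47610 and AT3G62870, differed by 0.41 (edgeR adjusted p = 0.0183 and 0.0284). The other called members were AT1G57660 (L21, 0.71 ± 0.15), AT2G20450 (L14, 0.57 ± 0.10), AT2G44120 (L7, 0.51 ± 0.10), AT3G24830 (L13a, 0.48 ± 0.10) and AT5G23900 (L13, 0.48 ± 0.10). AT1G57660 has a near copy in AT1G57860 (95.8% over 660 bp), and PGY2 (AT1G33140) has one in AT1G33120 (95.5% over 849 bp), so that the counting could have split their reads.

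PGY2 is an example of a gene that replicate 1 dominates. It stood at 326, 163 and 172 CPM in imbibed erf4, against 112, 143 and 128 CPM in imbibed Col-0. In dry seeds it stood at 306, 104 and 123 CPM in dry erf4 and 141, 159 and 107 CPM in dry Col-0. Replicate 1 of erf4 was about the same in dry and imbibed seeds and far above the other erf4 libraries, which overlapped with Col-0 in dry seeds. The difference over both states was 0.59 ± 0.27 and was not called (edgeR adjusted p = 0.259).

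**Figure D4:**
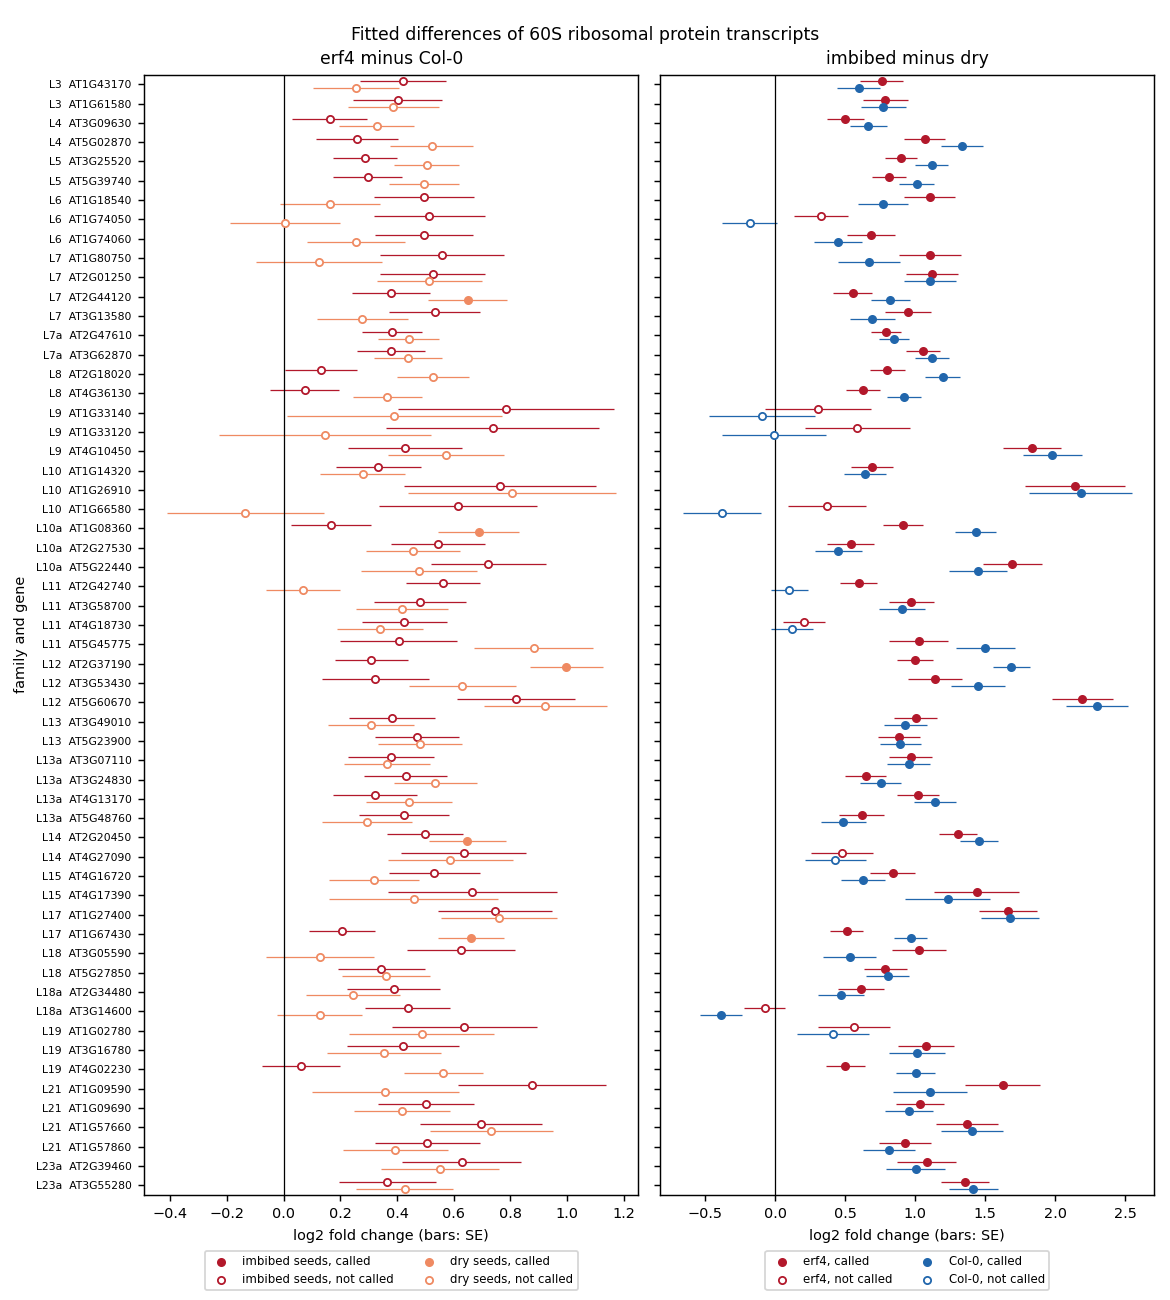
Log2 fold change with SE (horizontal axis) of each of the 58 tested members (down, by family), for erf4 against Col-0 in imbibed and in dry seeds at the left and for imbibed against dry seeds in erf4 and in Col-0 at the right, with called members filled. The genotype differences centre on 0.43 in both states, with 0 members called in imbibed and 5 in dry seeds, and the imbibition differences centre on 0.91 in erf4 and 0.92 in Col-0.

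Imbibition for 6 h raised most of the members in both genotypes. In erf4 50 of the 58 members were higher in imbibed than in dry seeds and 0 lower, where 28.4% of all tested genes were higher and 27.2% lower (edgeR's quasi-likelihood test). In Col-0 49 were higher and 1 lower, against 27.2% and 25.2% of all tested genes. The median log2 fold change of the members was 0.91 in erf4 and 0.92 in Col-0, that of all genes 0.04 and 0.05. In 50 members every imbibed erf4 library lay above every dry erf4 library (31.1% of all genes), and in 51 every imbibed Col-0 library lay above every dry Col-0 library (34.7%). In 15 of the 22 families every tested member was called higher in both genotypes. These fold changes are relative to TMM scaling: with total counts alone the median of all genes is 0.54 in each genotype, and that of the members stays 0.87 above that median in erf4 and 0.86 in Col-0.

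The 3 largest rises in both genotypes were those of genes with low levels in dry seeds. AT5G60670 (L12) stood at 107, 59.5 and 69.4 CPM in imbibed erf4 and 21.8, 13.4 and 16.2 CPM in dry erf4 (2.19 ± 0.22, edgeR adjusted p = 3.34e-06). In Col-0 it stood at 41, 47.4 and 45.2 CPM in imbibed and 8.21, 10.1 and 8.81 CPM in dry seeds (2.30 ± 0.22, edgeR adjusted p = 3.07e-06). Imbibed and dry libraries were far apart in both genotypes. RPL10B (AT1G26910), one of 3 genes for the late-joining protein L10, stood at 21.7, 15.3 and 18.7 CPM in imbibed erf4 and 6.15, 4.68 and 1.77 CPM in dry erf4 (2.14 ± 0.36, edgeR adjusted p = 0.000245). In Col-0 it stood at 11.2, 10.2 and 11.5 CPM in imbibed and 2.30, 3.26 and 1.61 CPM in dry seeds (2.18 ± 0.37, edgeR adjusted p = 0.00028), again without overlap.

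AT4G10450, the least abundant L9 gene, stood at 128, 97.3 and 95.2 CPM in imbibed erf4 and 37.4, 25.3 and 27.2 CPM in dry erf4 (1.83 ± 0.21, edgeR adjusted p = 9.59e-06). In Col-0 the values were 75.5, 84.8 and 78.3 CPM in imbibed and 22.0, 24.6 and 13.8 CPM in dry seeds (1.98 ± 0.21, edgeR adjusted p = 6.35e-06). These rises too were larger than the spread of the libraries. Other large rises were those of AT1G27400 of L17 (1.66 in erf4 and 1.68 in Col-0), AT5G22440 of L10a (1.70 and 1.45), AT2G37190 of L12 (1.00 and 1.69) and AT1G09590 of L21 (1.63 and 1.11), all called in both genotypes.

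Some members did not pass the test without pairing of the libraries. The 8 members not called in erf4 were AT1G74050 (L6), PGY2 and AT1G33120 (L9), SAG24 (L10), RPL16B (AT4G18730, L11), AT4G27090 (L14), AT3G14600 (L18a) and emb2386 (L19). In Col-0 RPL16A (AT2G42740, L11) took the place of AT3G14600. No label pairs the libraries across the states. Same-numbered erf4 libraries correlated (0.341 to 0.350), but correlations of that size also occurred without a shared number. A fit with a replicate block within each genotype, chosen after seeing the data, called 56 of the 58 members higher in erf4 (background 32.3%). The exceptions were RPL16B (0.20, edgeR adjusted p = 0.0867) and AT3G14600 (-0.06, edgeR adjusted p = 0.611). AT1G74050 stood at 353, 245 and 229 CPM in imbibed erf4 and 293, 179 and 186 CPM in dry erf4, with overlapping groups (0.33 ± 0.19, edgeR adjusted p = 0.167, and 0.00362 with that block). In Col-0 it stood at 184, 195 and 200.0 CPM in imbibed and 213, 224 and 219 CPM in dry seeds (-0.18 ± 0.19, edgeR adjusted p = 0.457). AT3G14600 was called lower in Col-0, where it stood at 107, 106 and 108 CPM in imbibed and 127, 141 and 151 CPM in dry Col-0 (-0.38 ± 0.15, edgeR adjusted p = 0.0444). The groups were apart, but the call held in 13 of 24 alternatives, and with scaling by total counts alone the log2 fold change was 0.11. In erf4 the same gene stood at 165, 131 and 139 CPM in imbibed and 186, 150.4 and 122 CPM in dry seeds, with overlap (-0.08 ± 0.15, edgeR adjusted p = 0.692).

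Whether imbibition acted differently in the 2 genotypes was tested by the interaction. None of the 58 members was called (edgeR, background 0%), 6 had an unadjusted p below 0.05 (background 10.5%), and 1 was called by DESeq2 (background 1.02%). That gene was AT2G37190, whose rise was smaller in erf4 by 0.69 on the log2 scale (interaction -0.69 ± 0.18, edgeR adjusted p = 0.264, DESeq2 adjusted p = 0.0369). A fit with a replicate block within each genotype, chosen after seeing the data, called 4 (background 3.14%). The block also covers Col-0, whose libraries the numbers were not taken to pair. The 4 were AT2G37190 (edgeR adjusted p = 0.0146), AT1G09590 (0.54, edgeR adjusted p = 0.0346), SAG24 (AT1G66580, 0.77, edgeR adjusted p = 0.0161) and AT1G74050 (0.52, edgeR adjusted p = 0.037). Of these AT1G09590 rose in both genotypes, and more in erf4. With that block SAG24 rose by 0.40 in erf4 and fell in Col-0 (-0.37, edgeR adjusted p = 0.00405 and 0.00758). AT1G74050 rose by 0.34 in erf4 and pointed lower in Col-0 (-0.18, edgeR adjusted p = 0.00362 and 0.0832).

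Within families the balance between paralogs shifted on imbibition. For each gene the log2 ratio of its level per kb to the rest of its family was compared between imbibed and dry libraries within genotypes, by a two-sided exact permutation test over 400 arrangements that can reach no p below 0.005. This ratio does not depend on the scaling of libraries. Of 46 comparisons 31 had an adjusted p under 0.05, in 18 of 22 families, and 23 had the smallest p. The L3, L5, L13 and L18 families had none. For genotype the same test called 0 of 46, with 1 at the smallest p (AT3G53430, -0.24, exact permutation p = 0.005, adjusted 0.23). As the smallest p did not pass after adjustment, this test could not call a shift by genotype in 1 gene alone.

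The 2 largest shifts were those of minor genes of a family, which gave larger shares in imbibed seeds. RPL10B gave 1.99% of the L10 transcript in imbibed erf4, 1.60% in imbibed Col-0, 0.666% in dry erf4 and 0.403% in dry Col-0 (log2 ratio change 1.88, exact permutation p = 0.005, adjusted 0.01). AT4G10450 gave 15% of the L9 transcript in imbibed erf4, 17.4% in imbibed Col-0, 6.68% in dry erf4 and 4.85% in dry Col-0 (1.69, with the same p values). The shares of the 2 genotypes were close beside the step between the states.

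AT5G45775 gave 25 and 25.7% of the L11 transcript in imbibed erf4 and imbibed Col-0, and 17.5 and 12.6% in dry erf4 and dry Col-0, while RPL16B gave 52.2 and 52.5% in imbibed seeds and 64.6 and 67.7% in dry seeds in that order of genotypes. AT1G27400 gave 32.5 and 24.8% of the L17 transcript in imbibed erf4 and Col-0, against 17.5 and 16.9% in the dry seeds. AT5G60670 gave 14.5 and 10.8% of the L12 transcript in imbibed erf4 and Col-0, against 7.26 and 6.86% in the dry seeds. These 4 genes all had the smallest p, with log2 ratio changes of 0.96 for AT5G45775, -0.83 for RPL16B, 0.95 for AT1G27400 and 0.91 for AT5G60670.

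Some genes that led their family in dry seeds gave smaller shares in imbibed seeds. PGY1 gave 57.8 and 54.6% of the L10a transcript in imbibed erf4 and Col-0, against 67.6 and 70.5% in dry erf4 and Col-0 (log2 ratio change -0.80). In the L6 family the leading gene changed: AT1G74050 gave 38.5 and 38.3% in imbibed erf4 and Col-0, against 49.2 and 52.7% in the dry seeds (-0.74), and AT1G18540 gave 41.7 and 41.8%, against 31 and 29.6% in the dry seeds (0.72). An opposite case is the L18a family, where the leading gene AT2G34480 gained, with 75.3 and 75.9% in imbibed erf4 and Col-0, against 65.3 and 63.5% in the dry seeds (0.78). All 4 had an exact permutation p of 0.005 (adjusted 0.01). In the L12 family the other genes did not pass the test for imbibition.

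**Figure D5:**
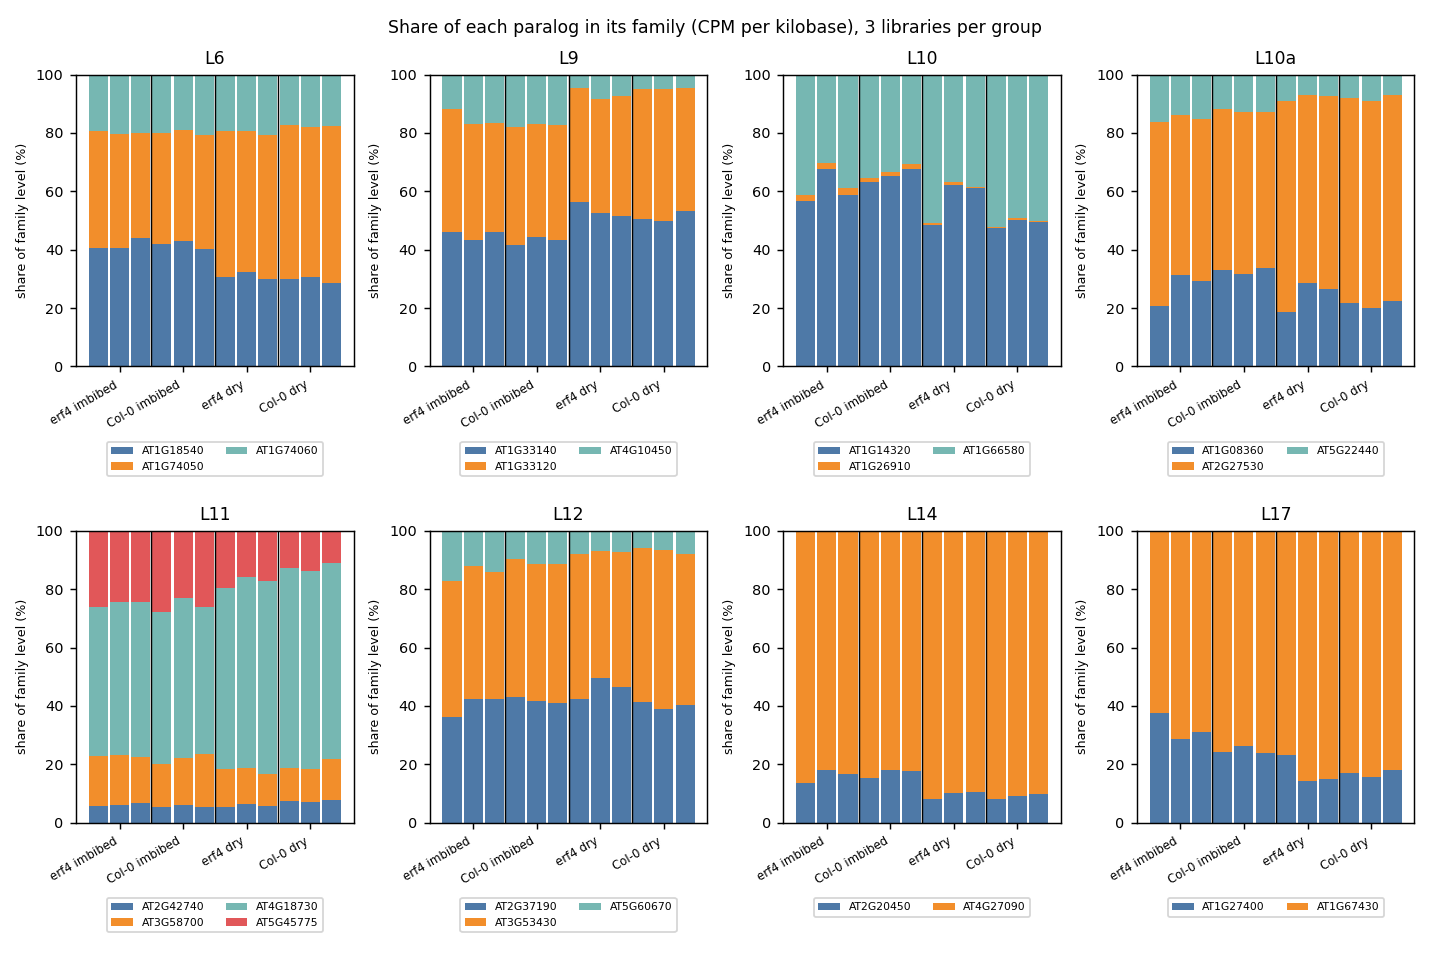
Share of each gene in the transcript of its family (percent of CPM per kb, vertical axis from 0 to 100) in each of the 12 libraries, for 8 families, with erf4 imbibed libraries at the left and Col-0 dry libraries at the right. AT4G10450 of L9 and AT1G27400 of L17 take larger shares in imbibed than in dry seeds, with AT4G10450 at 15% and 17.4% in imbibed erf4 and Col-0 and 6.68% and 4.85% in dry erf4 and Col-0.

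Summed over its genes, every family was higher in erf4 and in imbibed seeds by the group means. The ratio of erf4 to Col-0 ran from 1.09 (L8) to 1.64 (L9) in imbibed seeds, with a median of 1.36, and from 1.06 (L10) to 1.75 (L12) in dry seeds, with a median of 1.345. The ratio of imbibed to dry seeds ran from 1.33 (L18a) to 2.36 (L21) in erf4, with a median of 1.70, and from 1.11 (L9) to 3.08 (L12) in Col-0, with a median of 1.75.

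Another list held the other 60S protein genes, from L22 onward. Of 68 tested, 11 were higher and 0 lower in dry erf4 (edgeR; median log2 fold change 0.57), where the backgrounds were 0.519% and 0.577%. In imbibed seeds 0 were called (edgeR, background 0.0159% higher, median 0.49), with 40 at an unadjusted p below 0.05 (background 15.0%). DESeq2 called 6 in either direction. For all genes only the share called higher, 1.55%, is given, which is not a matching background. Over both states 22 were higher (background 1.46%; median 0.53). Imbibition raised 51 of them in erf4 (background 28.4%) and 48 in Col-0 (background 27.2%). Among them AT3G28900 of the L34 family stood at 54.5 ± 10.1 CPM in dry erf4 and 23.2 ± 2.76 CPM in dry Col-0 (SD, n = 3; 1.23, edgeR adjusted p = 0.0109). The genes of ribosome assembly, 38 tested, had lower genotype medians, 0.07 in dry and 0.12 in imbibed seeds. In imbibed seeds edgeR called 0 of them, with 8 at an unadjusted p below 0.05 (background 15.0%). DESeq2 called 2 there in either direction, beside 1.55% of all genes called higher, which again covers 1 direction only. In dry erf4 2 assembly genes were higher (edgeR, background 0.519%). Those 2 were FIB2, the fibrillarin of rRNA methylation, at 51 ± 9.73 CPM in dry erf4 and 23.1 ± 5.16 CPM in dry Col-0 (SD, n = 3; 1.14 ± 0.17, edgeR adjusted p = 0.00808), and CBF5, the pseudouridine synthase, at 172 ± 8.72 CPM in dry erf4 and 116 ± 6.86 CPM in dry Col-0 (0.57, edgeR adjusted p = 0.0293). On imbibition 32 assembly genes were higher and 1 lower in erf4 (backgrounds 28.4% and 27.2%), and 33 higher and 1 lower in Col-0 (27.2% and 25.2%). FIB2 was among the higher ones (2.42 in erf4 and 3.29 in Col-0), and REIL1, a late maturation factor of the 60S subunit, was the lower one (-1.51 and -1.41).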

How the data were processed

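Deposited by the authors was a single table of raw counts per gene, which per the file headers also gives coordinates and exonic length. The submitters' processing notes name fastp 0.20.0, HISAT2 2.1.0, DESeq2 1.34.0, featureCounts 2.0.1 and the TAIR10 build, without parameters or strand setting. All 59 members had the span and strand of the RefSeq TAIR10.1 annotation.

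After filterByExpr (edgeR 4.0.16, R 4.3.3) 18897 genes remained and were scaled by TMM. All 12 libraries entered 1 robust quasi-likelihood fit of the 4 group means (8 residual degrees of freedom). Calls were made at a Benjamini-Hochberg adjusted p below 0.05 across the tested genes. The scripts were tested on simulated data. Floors of 3 counts cover counting error only. Near copies are genes 95% or more identical along 100 bp or more (BLAST 2.17.0). The members, the gene lists and the genes named were chosen with earlier results of these data known. Named were the members called by genotype, the largest changes on imbibition, those not called, and further members that show a family or a library. Numbers were taken to pair libraries where the deviations of every same-numbered pair correlated above 0.1. This held for erf4 across states (0.341 to 0.350) but not for Col-0 (0.0655 to 0.215) or the genotypes (-0.277 to 0.077), although each of the 3 Col-0 libraries, as of erf4, correlated best with its own number. A correlation of that size also occurred without a shared number. It was 0.354 between dry erf4 replicate 2 and dry Col-0 replicate 3, and 0.344 between the imbibed libraries with these numbers. Alternatives were DESeq2 1.42.0, other scalings and filters, a replicate block, a covariate for the letter that ends each library name, the compared groups alone, a stricter threshold, and leaving out libraries.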

Additional observations from a re-analysis of the deposited data

How the results depend on the processing

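The number of members higher in erf4 depended on the tool and the libraries. In dry seeds the count of 5 became 18 with DESeq2 (background 2.27% of all genes higher), 24 with the letter that ends the library names as a covariate (b in dry Col-0 replicates 1 and 2 and dry erf4 replicate 1, r in the rest, of unknown meaning; background 1.18%), 1 at an adjusted p under 0.01 (0.0741%), 1 with only the groups compared (0.139%), 1 without both erf4 replicate 3 libraries (0.183%), 8 without both erf4 replicate 1 libraries (1.04%), and 1 to 9 without single libraries (0.0877 to 0.860%). In imbibed seeds the count of 0 became 11 with DESeq2 (1.55%) and stayed 0 without single libraries (0.0155 to 0.108%). Over both states the count of 17 became 42 with DESeq2 (4.14%), 45 with that letter (3.31%), 1 at an adjusted p under 0.01 (0.0635%), 4 without both replicate 3 libraries (0.340%), 10 without both replicate 1 libraries (0.674%), and 2 (without Col-0 imbibed replicate 1) to 33 (without erf4 dry replicate 2) without single libraries (0.253 to 3.27%). The interaction count of 0 became 1 with DESeq2 (1.02% in either direction) and 4 with a replicate block within each genotype (3.14%). That block, chosen after seeing the data, called 56 members higher on imbibition in erf4 (32.3%), and 51 higher and 2 lower in Col-0 (31% and 29%). Members called higher on imbibition ranged over 49 to 56 in erf4 and 43 to 50 in Col-0 without single libraries (backgrounds 24.9 to 28% and 22.9 to 27.9% higher). Calls of paralog shifts on imbibition were 25 to 34 of 46 without single libraries and 0 with a replicate block, whose smallest possible p cannot pass after adjustment. With the replicate block across all groups 4 members were called in dry seeds, 0 in imbibed seeds and 17 over both states. The share of all genes called by genotype with this block is not given here, so these counts have no background. The median over the members was 0.42 in dry seeds, 0.42 in imbibed seeds and 0.40 over both states. That of all genes was 0.0016, -0.00083 and -0.0016. On imbibition 52 rose in erf4, while in Col-0 49 rose and 1 fell (backgrounds 28.1% and 27% higher). With scaling by total counts alone, which moves the median of all genes, AT3G14600 had a log2 fold change of 0.11 on imbibition in Col-0, in place of -0.38. The cause of these changes was not tested. Whether depth limited the calls was not tested.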
